A study of Aedes aegypti with 5 samples.

Results

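The salivary gland array carried 2 probes for enzymes of serine synthesis, D-3-phosphoglycerate dehydrogenase (PHGDH, probe AET-3626, identifier 94468936) and phosphoserine aminotransferase (PSAT, probe AE-3793, identifier 94468534). They were chosen by these names in the gene descriptions and are 2 of 433 gene probes. They were picked with their levels in all 5 groups known, so their levels and ratios are a description and carry no p-value. Salivary gland RNA came from female *Aedes aegypti*, the yellow fever mosquito, of the Higgs white eye strain. The first group was unfed, and the other 4 were dissected 1 h, 3 h, 24 h or 48 h after a meal on a BALB/c mouse (hpf, hours post feeding). All were starved beforehand, were of the same age and had taken no earlier blood meal. Each group is 1 pool of glands hybridized to 3 nylon oligonucleotide arrays, numbered 1 to 3. The spread between arrays is therefore technical, and a test between groups compares pools and not mosquitoes. In such pools fewer cells of a type and less RNA per cell cannot be told apart.

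Serine is made from 3-phosphoglycerate, an intermediate of glycolysis. PHGDH oxidizes it to phosphohydroxypyruvate, PSAT transfers an amino group from glutamate to that product, and a phosphatase then releases serine. Serine is a building block of proteins and phospholipids and feeds glycine and folate-dependent carbon metabolism. In mammals both enzymes are known targets of the transcription factor ATF4. The keyword search found no probe for the phosphatase or for serine hydroxymethyltransferase.

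Levels are normalized intensities. The mean of an array's 22 empty spots is subtracted from each spot, and the rest is expressed relative to the average of its reference spots, actin (AE-314) and the ribosomal protein S5 probe (AE-198A). A spot is called above the empty spots if it lies over 2 SD higher than their mean, which 121 to 162 probes of an array did, while 33 to 64 reached saturation. Of the 11 probes for the glands' known products, D7 proteins, apyrases, amylase and alpha-glucosidase, 10 were above the empty spots on all 15 arrays and D7s3 (AY951936) was above them on 0. The other-tissue keywords found 7 probes. Myosin light chain (AE-377) was above the empty spots on 0 arrays and opsin (AET-596) on 7, and 2 of the 7 probes are named as salivary proteases. Large trypsin (AEA-876) passed on 14 arrays, and the prophenoloxidase activator probes AET-5733 and AF466614 on 8 and 4. At 3 hpf the mean of large trypsin was 0.268 against 0.410 unfed. Those of AET-5733 and AF466614 were 0.183 and 0.155 against 0.110 and 0.0858. Summed over the 7, the level spanned 3.54 to 3.87 on the unfed arrays and 3.33 to 4.74 on those of 3 hpf. It spanned 5.00 to 6.30 (1 hpf), 4.69 to 5.16 (24 hpf) and 4.46 to 5.71 (48 hpf) in the other fed groups. The salivary proteases AE-226 and AE-191 made up most of these sums, with unfed means of 1.36 and 1.57. AE-191 was saturated on all 3 arrays of every group. AE-226 was saturated on 2 unfed arrays and on 2, 0, 2 and 1 arrays at the 4 times after feeding in order. The normalized value of a saturated spot follows the reference spots, so differences between these sums are not read as RNA of other tissues. Opsin, a visual pigment protein of the eye, was above the empty spots on 0 unfed arrays and on 3, 2, 2 and 0 arrays at the 4 times after feeding in order. Its means were 0.0683 unfed and 0.232, 0.161, 0.112 and 0.0449 at those times. The part of these probes' tissues in the values of the serine enzymes was not tested.

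Judged by each array's own limit, both enzymes were at background in unfed glands and above it on every 3 hpf array. At 24 hpf they were above it on 2 of 3 arrays. On arrays 1, 2 and 3 the normalized intensity of PHGDH was 0.0247, 0.00663 and 0.0216 in unfed glands and 0.123, 0.251 and 0.617 at 3 hpf. The 3 hpf arrays all lay above the unfed arrays, which held for 5.54% of all probes, and none of the unfed arrays passed its own limit. The 3 hpf mean was 0.330 ± 0.257 (SD, n = 3 arrays) against 0.0176 ± 0.00966 in unfed glands. At 24 hpf PHGDH read 0.0103, 0.0924 and 0.239, with a mean of 0.114 ± 0.116 (SD, n = 3 arrays). Arrays 2 and 3 of 24 hpf were above the empty spots, while array 1 was not and overlapped the unfed arrays. The limits of arrays 1, 2 and 3 were 0.108, 0.0977 and 0.210 unfed and 0.113, 0.0746 and 0.223 at 3 hpf. At 24 hpf they were 0.0731, 0.0423 and 0.144. The PHGDH value of 3 hpf array 1, 0.123, passed by little and lay under the limit of unfed array 3. That of 24 hpf array 2, 0.0924, lay under the limit of every unfed array.

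No array of 1 or 48 hpf showed PHGDH above the empty spots, with limits of 0.141, 0.102 and 0.242 on the 1 hpf arrays. PHGDH on array 1 of 3 hpf, at 0.123, lay under the limits of 1 hpf arrays 1 and 3. It read -0.0393, -0.00715 and -0.00875 at 1 hpf and -0.0163, -0.0177 and -0.0161 at 48 hpf, where a negative value lies below the mean of the empty spots. Ordered by group mean, PHGDH was highest at 3 hpf and next at 24 hpf. The arrays of these neighbours overlapped. Unfed, 48 hpf and 1 hpf followed with no measured order among them, since none was above the empty spots.

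PSAT showed the same order at the top and slightly higher values. It read 0.0235, -0.00751 and -0.00487 in unfed glands and 0.178, 0.346 and 0.789 at 3 hpf. All 3 hpf arrays were again above the empty spots and above every unfed array, though array 1 lay under the limit of unfed array 3, 0.210. The 3 hpf mean was 0.437 ± 0.316 (SD, n = 3 arrays) and the unfed mean 0.00371 ± 0.0172. At 24 hpf PSAT read 0.0538, 0.120 and 0.317, with a mean of 0.163 ± 0.137 (SD, n = 3 arrays), and only array 1 stayed under its limit. Since the unfed arrays were under their limits too, the order between them and array 1 of 24 hpf was not measured. The 24 hpf arrays overlapped those of 3 hpf. PSAT read -0.00215, 0.00968 and 0.0354 at 1 hpf and -0.0180, 0.00230 and -0.000561 at 48 hpf. None of these 6 values was above the empty spots, so the order of unfed, 1 hpf and 48 hpf was not measured.

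**Figure D1:**
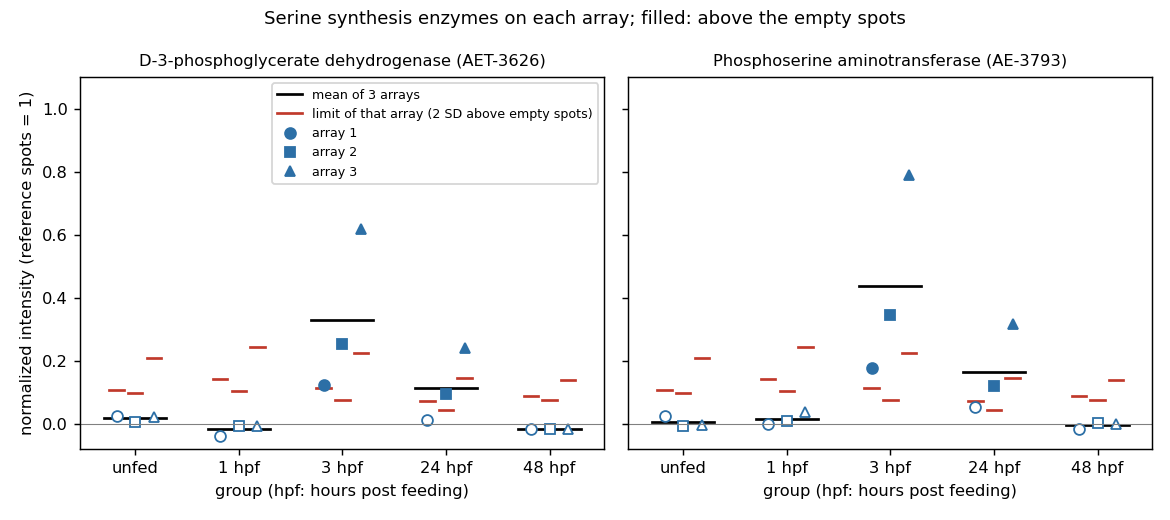
Normalized intensity (actin and S5 mean = 1) of PHGDH and PSAT on each of the 3 arrays per group; circles, squares and triangles are arrays 1, 2 and 3, black lines the means, red ticks each array's limit of 2 SD over the empty spots, and filled symbols the values above it. Symbols are filled on 3 arrays at 3 hpf and on 2 at 24 hpf for each gene, and on none in unfed glands or at 1 and 48 hpf.

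The same contrast was visible before any scaling. The PHGDH spot had an intensity of 3495, 3376 and 5959 in unfed glands and of 6084, 11108 and 25144 at 3 hpf, so the lowest 3 hpf spot exceeded the highest unfed spot by little. The PSAT spot reached 4676 at most in unfed glands and ranged from 7625 to 30940 at 3 hpf. Both spots were far below the saturation limit of 60000. Ranked by group mean among the 433 probes at 3 hpf, where both were measured, PHGDH stood at 105 and PSAT at 95.

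Because the unfed level was not above the empty spots, it gives only a bound on the fold. The bound sets the geometric mean of the brighter group's measured values against the dimmer group's limits, taken on each array as the dimmest signal that passed. It bounds the dimmer side only and makes no allowance for the spread of the brighter group. At 3 hpf the SD of the log2 values was 1.17 for PHGDH and 1.08 for PSAT. By these means PHGDH at 3 hpf was at least 1.97-fold and PSAT at least 2.69-fold higher than in unfed glands. The study's limit for a change was 2-fold. Without array 3 of 3 hpf, the brightest, these bounds were 1.29 and 1.83. With the local background of each spot in place of the empty spots they were 3.09 and 4.14. The limit there was 2 SD of the empty spots after local subtraction, so background and limit changed together. At 24 hpf the geometric means, 0.0610 for PHGDH and 0.127 for PSAT, lay under the mean unfed limit of 0.136, so no fold over unfed is given. None is given for 1 and 48 hpf either, since neither side was above the empty spots.

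Against the other fed groups, by the same kind of bound, PHGDH at 3 hpf was at least 1.74-fold higher than at 1 hpf. Over 48 hpf it was at least 2.67-fold higher. Without array 3 of 3 hpf these bounds were 1.15 and 1.76. PSAT at 3 hpf was at least 2.38-fold higher than at 1 hpf and at least 3.65-fold higher than at 48 hpf. Quantile normalization lowered the bounds over 48 hpf to 1.49 for PHGDH and 2.10 for PSAT. For both genes all 3 hpf arrays lay above all those of 1 hpf and of 48 hpf, which held for 8.55% and 14.8% of all probes.

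The 3 and 24 hpf arrays overlapped for both genes, and the ratio between these groups was imprecise. The ratio of means was 2.90 (SE 2.14) for PHGDH and 2.68 (SE 1.71) for PSAT. Of all probes, 8.31% had every 3 hpf array above those of 24 hpf. Arrays of the same number all ran the same way, with ratios on arrays 1, 2 and 3 of 12, 2.72 and 2.58 for PHGDH and of 3.30, 2.88 and 2.49 for PSAT. The first PHGDH ratio rests on a 24 hpf value that was not above the empty spots. Without array 3 of 3 hpf the ratios were 1.64 and 1.60, without array 3 of 24 hpf they were 6.43 and 5.04, and with geometric means of floored values the PHGDH ratio was 1.90.

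Other measurable probes were also brightest on array 3. Of 84 probes above the empty spots on at least 2 of the 3 arrays of 3 hpf and saturated on none of them, 83 (98.8%) were highest on array 3. At 24 hpf this held for 93 of 95 probes (97.9%) chosen in the same way. Both enzymes are themselves among the probes counted at each of these times. The median ratio of array 3 to array 2 was 2.41 at 3 hpf and 2.42 at 24 hpf. PHGDH had ratios of 2.46 and 2.58 and PSAT of 2.28 and 2.64. Array 1 was not compared in this way. The 2 genes kept a near constant ratio within an array: PSAT over PHGDH was 1.45, 1.38 and 1.28 on the 3 hpf arrays and 1.30 and 1.33 on arrays 2 and 3 of 24 hpf. This ratio compares spot signals of different probes and is not a ratio of transcript levels.

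The balance of the 2 reference spots moved with the groups as well. Their mean is set to 1 on each array, so actin is read relative to S5 and the 2 move in opposite directions. The unfed arrays gave actin a normalized intensity of 0.508 ± 0.252 (SD, n = 3 arrays). After feeding it was 0.212 ± 0.121 in the 1 hpf pool and 0.119 ± 0.0821 in the 3 hpf pool, then 0.0754 ± 0.0669 (24 hpf) and 0.0615 ± 0.0490 (48 hpf). S5 was saturated on 7 of 15 arrays. With S5 alone as reference the bounds at 3 hpf over unfed were 1.54 for PHGDH and 2.11 for PSAT. Median scaling divided each array by its median over the 97 probes above the empty spots on all 15 arrays. With it they were 1.51 and 2.06.

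The pattern of the enzymes was also counted over all probes. It was drawn from their own levels and depends on each array's limit, so the counts are a description and nothing is read from them. Above the empty spots on 3 of 3 arrays at 3 hpf and on none of unfed, 1 or 48 hpf were 3 of 433 probes (0.693%), the 2 enzymes and S-adenosylhomocysteine hydrolase (AET-5159). With unfed glands alone as the comparison there were 4 (0.924%), the fourth being the V-ATPase subunit c (AF008924). A limit of 2 arrays at 3 hpf admitted 8 probes (1.85%), among them the enzymes and flavin-containing monooxygenase (AET-3940). Passing on 2 or more arrays both at 3 and 24 hpf and on none of the other 9 were 5 probes (1.15%). Besides the enzymes these were a UDP-glycosyltransferase-like protein (AET-670), a 26S proteasome regulatory chain (AET-397) and selenophosphate synthetase (AET-2690), which makes the selenium donor for selenoproteins and was higher at 24 hpf, with a mean of 0.335, than at 3 hpf, with 0.152.  In the limma fit over all 432 tested probes, 4 (0.926%) passed as higher at 3 hpf, and 0 of the 2 enzymes did. With the array number as a block 60 (13.9%) passed, and 2 of the 2 enzymes did. Since the enzymes were picked with their levels in this contrast known, nothing is read from these counts.

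The 2 spots have consecutive position numbers, 405 and 406, and the spots at 404 and 407 did not rise above the empty spots. The sources used here do not give how the numbers lie on the membrane. Bleomycin hydrolase (AET-4775) at 404 had a mean intensity of 3448 in unfed glands and 3233 at 3 hpf. Pyrroline 5-carboxylate reductase (AE-4841), an enzyme of proline synthesis at 407, had 4535 and 4941. Both were above the empty spots on 0 arrays of any group. Dihydropteridine reductase (AET-5217) at 403 also passed on 0 arrays, but its mean was highest at 3 hpf. It was 3668 unfed, 5149 at 3 hpf and 3519 at 24 hpf. Ornithine decarboxylase antizyme (AY064120), a regulator of polyamine synthesis at 408, was bright in unfed glands, with a mean of 57876, and at 3 hpf, with 52191. The local background beside the enzyme spots was higher at 3 hpf too, with means of 4899 for PHGDH and 5733 for PSAT against 3222 and 3331 in unfed glands. On array 3 of 3 hpf the spots were 3.57 times their local background for each gene. On array 1 of 3 hpf they were 1.65 (PHGDH) and 1.83 (PSAT) times theirs. Array 3 of the unfed group reached 1.78 and 1.28, so by this measure PHGDH overlapped between the groups and PSAT did not. PSAT on array 3 of 1 hpf stood at 1.69.

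**Figure D2:**
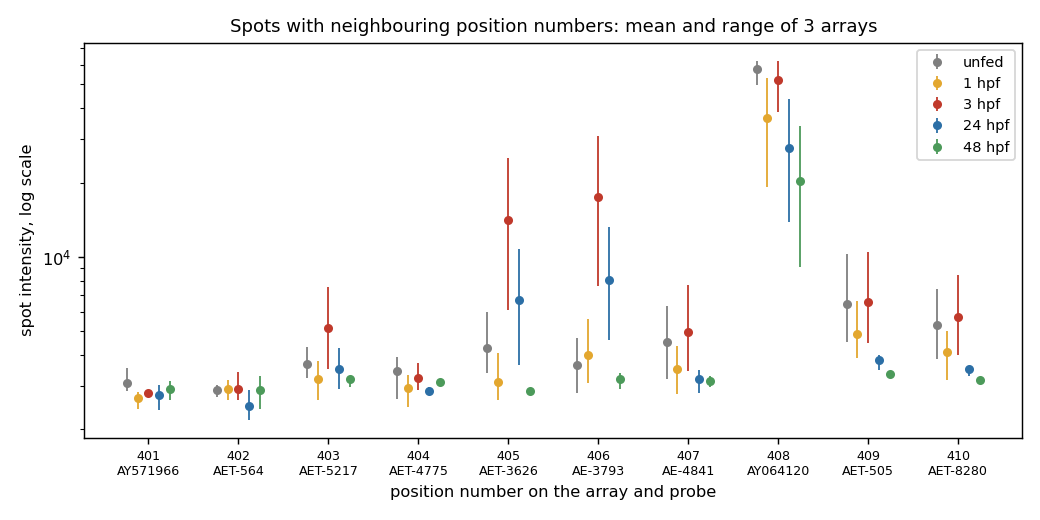
Spot intensity (log scale, no scaling between arrays) at 10 consecutive position numbers, with the mean as a point and the range of 3 arrays as a line for each group. At PHGDH (AET-3626) and PSAT (AE-3793) the 3 hpf and 24 hpf means stand above the others, while position 404 stays low in all groups and 408 is bright in all of them.

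Profiles over the 15 arrays were compared by Pearson's r of log2 values after a floor of 0.1077, among 100 probes above the empty spots in at least 1 group and never saturated. Only 4 arrays of PHGDH and 5 of PSAT lay over the floor, and arrays share their brightness, so r is a description. It was 0.985 between the 2 enzymes, against a median of 0.505 and a highest value of 0.987 over all 4950 pairs. It was at most 0.922 among the 25 other pairs of candidates with consecutive position numbers. The enzymes were picked with their values known, so whether neighbouring spots share signal was not tested by this. The same 4 probes followed for each enzyme. Flavin-containing monooxygenase (AET-3940), an oxidizing enzyme, had r of 0.911 with PHGDH and 0.855 with PSAT, and AET-670 had 0.897 and 0.862. The putative prophenoloxidase activating protein (AF466614), which in insects belongs to the melanization cascade, had 0.896 and 0.844. It is also among the probes found by the other-tissue keywords. S-adenosylhomocysteine hydrolase had 0.862 and 0.840.

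None of these 4 probes was above the empty spots on an unfed array. The mean of the monooxygenase was 0.00125 before feeding and -0.00155 at 1 hpf, then 0.169 at 3 hpf, and it ended at 0.0617 (24 hpf) and 0.0400 (48 hpf). It was above the empty spots on 2 arrays at 3 hpf and on 1 at 24 hpf. AET-670 had a mean of 0.0726 in unfed glands and 0.178 at 3 hpf, and AF466614 of 0.0858 and 0.155. At 3 hpf they were above the empty spots on 2 arrays and on 1.

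**Figure D3:**
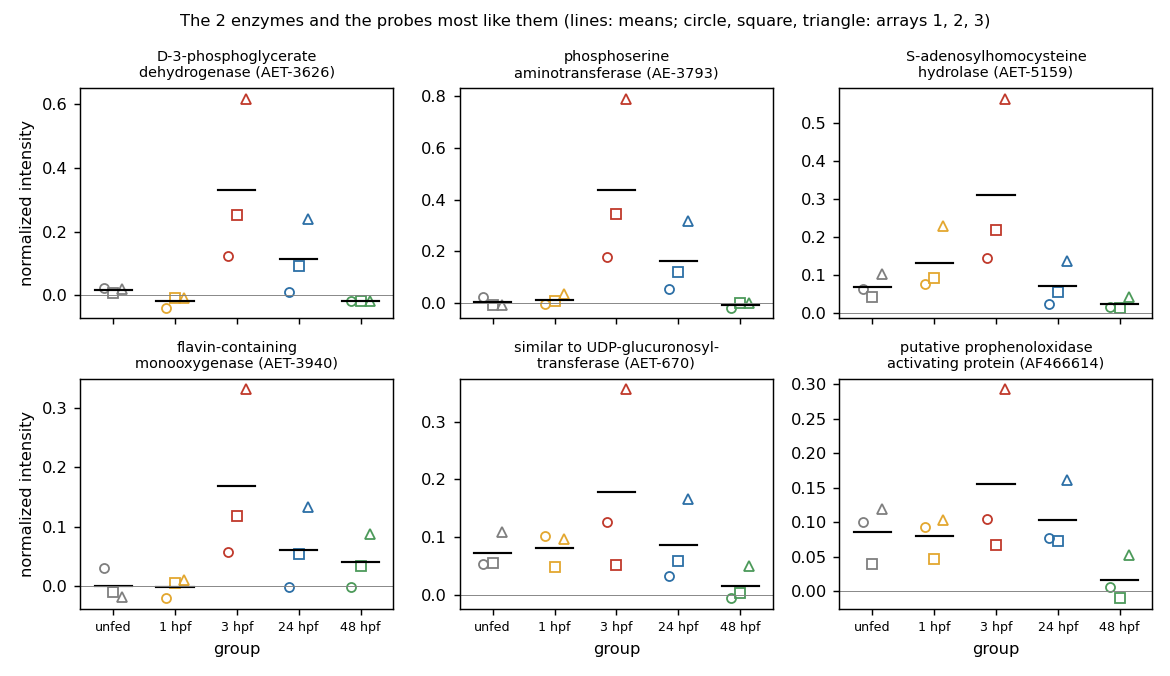
Normalized intensity of the 2 serine synthesis enzymes and the 4 probes with the most similar profiles, by group; circles, squares and triangles are arrays 1, 2 and 3, lines are means, and each panel has its own vertical scale. All 6 probes have their highest array value on array 3 of 3 hpf, from 0.293 for AF466614 to 0.789 for PSAT.

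The list of serine, glycine and carbon-unit metabolism held 1 further probe, S-adenosylhomocysteine hydrolase, which splits the product of methyl transfer into adenosine and homocysteine. It read 0.146, 0.219 and 0.562 at 3 hpf, where every array was above the empty spots, against 0.0437 to 0.102 in unfed glands, where none was. It was above the empty spots on 0 arrays at 1 hpf, with a mean of 0.132 ± 0.0842 (SD, n = 3 arrays), and on 1 array at 24 hpf, with 0.0723 ± 0.0577. On array 3 of 1 hpf it read 0.228, under that array's limit of 0.242 but over arrays 1 and 2 of 3 hpf. Its log2 difference from unfed at 3 hpf, after the floor, was 1.28 (SE 0.41). It did not pass limma (adjusted p = 0.269), and it did with the array number as a block (adjusted p = 0.0335).

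The other genes around the pathway were mostly not measurable on this membrane. Neither transaldolase (AET-445) nor ribulose-5-phosphate epimerase (AET-4285) of the pentose phosphate pathway was above the empty spots on any array. Nor were the threonyl and seryl tRNA synthetases (AY745981 and AET-527), the latter the enzyme that loads serine onto its tRNA, nor either of the mitochondrial carriers (AE-4323 and AET-526). Of 9 other probes of amino acid metabolism, 2 were measurable, that is, passed the limit on at least 2 arrays of a group. Ornithine decarboxylase antizyme was one of them. The other, kynurenine formamidase (AET-12468) of tryptophan breakdown, had a mean of 0.146 ± 0.106 (SD, n = 3 arrays) unfed and of 0.154 ± 0.116 at 3 hpf. The remaining 7, among them phenylalanine hydroxylase (AY571966) and kynurenine aminotransferase (AF395204), were above them on 0 arrays. ATF4 (AET-510) and pyridoxamine-phosphate oxidase (AET-4330), which makes the cofactor of aminotransferases, were looked up after the data had been seen and were above the empty spots on 0 of 15 arrays. At this signal a change in them was not detectable.

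Of 11 other dehydrogenases and reductases 1 was measurable, a thiol reductase (AET-330) similar to the lysosomal enzyme that reduces disulfides. It ran differently from the serine enzymes, with an unfed mean of 0.347 ± 0.199 (SD, n = 3 arrays). Its level 1 h after feeding was 0.586 ± 0.269, that 3 h after feeding 0.496 ± 0.343, and by 24 hpf it read 0.0878 ± 0.0721. Over the 6 lists and 4 times, 0 of 108 tests passed limma in either direction and 2 had an unadjusted p under 0.05. Most of the probes in these lists were not measurable, so a change in them was not detectable. A probe found by more than 1 list was counted in each. Over all 432 probes the shares that passed as higher were 0.926, 0.926, 0.926 and 0.231% at the 4 times in order, and as lower 0.231, 0.231, 0 and 0%. With the array number as a block these shares were 15.5, 13.9, 12.5 and 11.1% higher and 3.01, 4.17, 6.25 and 7.64% lower, and 5 of the 108 tests passed. These were S-adenosylhomocysteine hydrolase as higher at 3 hpf, the thiol reductase as higher at 1 hpf (adjusted p = 0.0263) and lower at 24 and 48 hpf (adjusted p = 0.00340 and 0.0140), and the antizyme as lower at 48 hpf. The median log2 difference was 0 in every list of more than 1 probe and over all probes at each time, since most probes lay at the floor.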

How the data were processed

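Spot intensity and local background were read from the deposited raw intensity sheet, made by the authors with GEArray Expression Analysis Suite 2.0 from nylon arrays. The normalized intensity was deposited by the authors and, recomputed from the raw sheet, differed by at most 0.000129. It is relative to positions 411 (actin) and 424 (S5) per the file headers, whereas the study's text names ribosomal protein L5. The score values of the deposited series matrix are group means over the unfed mean, and were used as an alternative. The lists of fold changes and p-values by the authors were not used. Array identifiers were set against the RefSeq gene table, and 0 of the 2 enzymes matched.

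The members and lists were chosen with earlier results of these data known, and the list keywords were written after the gene descriptions and some values had been seen. Ratios of means had been planned. Bounds are given over groups that were not above the empty spots. Log2 values after a floor of 0.1077, the median over arrays of 2 SD of the empty spots, were fitted with limma 3.58.1 in R 4.3.3 over all 15 arrays. P-values were adjusted by Benjamini-Hochberg over 432 probes per contrast, S5 left out, and 218 probes that never left the floor could not be fitted and count as not past the test. Arrays of the same number deviated together (30 pairs, r of 0.331 to 0.825 over 173 probes), so a fit with the number as a block was run too. The fit without the block was tried on simulated data for 3 hpf against unfed with 432 probes. It recovered 45, 80 and 95% of 2-, 4- and 8-fold changes (20 each), with 2 false calls. Changes were put only into probes whose signal passed the limit on all 3 arrays before feeding. The simulated noise was independent between arrays, unlike the shared deviations above. Neither enzyme passed in unfed glands, so these rates do not apply to the enzymes or to other probes at the floor there. Named besides the enzymes are the 5 most similar probes for each, up to 4 of the brightest measurable members of each list, the reference probes and the gland markers. The remaining probes named were chosen after their values were seen. The number of arrays limits the precision. Alternatives were the scaling, the background, the averaging, the floor, the filter, the block and leaving out each array.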

Additional observations from a re-analysis of the deposited data

How the results depend on the processing

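At 3 hpf over unfed, leaving out 1 array gave bounds of 1.29 to 2.90 for PHGDH and 1.83 to 3.85 for PSAT, and other scalings or backgrounds gave 1.51 to 3.09 and 2.06 to 4.14. At 24 hpf over unfed the same quotient was 0.449 for PHGDH and 0.935 for PSAT, which gives no fold. For PHGDH it passed 1 only without array 1 of 24 hpf (1.09). For PSAT it did so without that array (1.44), without array 3 of the unfed group (1.19), with quantile normalization (1.31) and with the local background (1.25). The group ratios in the series matrix were far larger, 18.72 for PHGDH and 118.07 for PSAT at 3 hpf and 6.45 and 44.12 at 24 hpf. Their divisors are the unfed means of 0.0176 and 0.00371, below the mean limit of 0.138 for a signal above the empty spots, so their size is not measured.

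In the fit with no block 5, 5, 4 and 1 probes passed limma at 1, 3, 24 and 48 hpf, in either direction. With the replicate block 80, 78, 81 and 81 passed, and 5 of the pathway list tests in place of 0. Quantile normalization gave 29, 51, 61 and 45, and testing only probes above the empty spots gave 8, 11, 7 and 9. Median scaling gave 3, 1 and 0 at 1, 3 and 48 hpf, and a floor lowered to 0.5 of its value gave 8 at 48 hpf. Leaving out 1 array gave 3 to 6 at 1 hpf, 1 to 5 at 3 hpf and 0 to 5 at 48 hpf. The cause was not tested.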
